A study of Mus musculus with 6 samples.

Results

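The collagen genes were taken as every gene whose symbol consists of Col, a number, the letter a and a number. There were 44 such genes among the 19937 genes that the array represents by a probeset with a single gene symbol. They comprised 11 fibrillar genes, 6 Col6 genes, 8 basement membrane genes (*Col4a1* to *Col4a6*, *Col15a1* and *Col18a1*) and 19 genes of other types. Gene expression was measured in the gonadal white adipose tissue (GWAT) of *ob/ob/Fsp27*-/- mice and *ob/ob* mice on 6 Affymetrix GeneChip Mouse Gene 1.0 ST arrays, 3 per genotype. Both genotypes were male, fed a chow diet and 4 months old, and both lacked leptin, which makes mice obese. The *ob/ob/Fsp27*-/- mice came from a cross and lacked, in addition, Fsp27 (gene symbol *Cidec*), a lipid droplet protein of adipocytes, in the whole body rather than in adipocytes alone. The study's methods place the mice on a C57BL/6J background and describe pools of RNA from 3 mice, 1 pool per array, whereas pooling is absent from the labels, which number the arrays singly. Each array counted as 1 replicate here, and all p-values measure the spread between arrays only. Arrays are numbered 1, 2 and 3 within each genotype.

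Collagens are the main structural proteins of the extracellular matrix. Their alpha chains wind together into a helix, are trimmed and secreted, and then build different structures. Fibrillar collagens (types I, III and V in most soft tissues) form the banded fibrils of connective tissue, type VI forms beaded microfibrils, and type IV forms the sheet-like network of basement membranes, on which types XV and XVIII sit. In fat, each adipocyte and each capillary is wrapped in a basement membrane, and fibrillar and type VI collagens fill the space between cells and increase in fibrotic obese depots.

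Values are given on the log2 scale as the authors' Robust Multi-array Average (RMA) values, so a difference of 1 is a doubling. Higher and lower calls in *ob/ob/Fsp27*-/- GWAT required a limma p, adjusted over all 22961 tested probesets, below 0.05 together with a log2 fold change of 0.5 or more in either direction. Over all 19937 genes, 10.8% were called lower and 9.58% higher, and the median log2 fold change was 0.06. The arrays had medians between 6.02 and 6.10 and correlated at 0.988 to 0.994 within a genotype and at 0.943 to 0.965 between genotypes. The adipocyte marker *Adipoq* lay at 12.28 to 12.48 in *ob/ob/Fsp27*-/- GWAT and at 10.59 to 11.68 in *ob/ob* GWAT, near the top of the scale, which ended at 13.57. The targeted gene *Cidec* had RMA values of 11.34, 11.51 and 11.53 in *ob/ob/Fsp27*-/- GWAT and 11.49, 11.78 and 11.98 in *ob/ob* GWAT, with overlapping genotypes and no call (log2 fold change -0.29, standard error (SE) 0.13, adjusted p = 0.157). Where its probes lie relative to the deleted part of the gene is not annotated in the tables used here, so this probeset does not check the labels.

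Collagen expression fell in part of the family and rose in none of it by the test used. In *ob/ob/Fsp27*-/- GWAT, 10 of the 44 collagen genes were lower (22.7%, against 10.8% of all genes) and 0 were higher (against 9.58% of all genes). Those that fell were the type I chains *Col1a1* and *Col1a2*, the type III chain *Col3a1*, the type V chain *Col5a2*, the type VI chains *Col6a1*, *Col6a2* and *Col6a3*, and *Col8a1*, *Col12a1* and *Col14a1*. Their log2 fold changes lay between -1.66 (*Col3a1*, 3.16-fold lower) and -0.88 (*Col6a2*, 1.84-fold lower). The other 34 members did not pass, and the median over all 44 was 0.03, beside 0.06 over all genes. At an unadjusted limma p under 0.05, 12 of the 44 members were lower (19.2% of all genes were) and 5 were higher (20.9% of all genes were). With arrays centred on the median level of a housekeeping list the split was 17 lower and 0 higher, where 33.6% of all genes were lower and 3.43% higher. With arrays centred on the median deviation of the same genes it was 10 lower and 1 higher, where 8.88% of all genes were lower and 13% higher. Tested against a log2 fold change of 0.5 rather than 0 (limma's treat), 0 members were higher (2.84% of all genes). In that test 3 members were lower (4.71% of all genes), namely *Col3a1*, *Col5a2* and *Col6a3*.

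**Figure D1:**
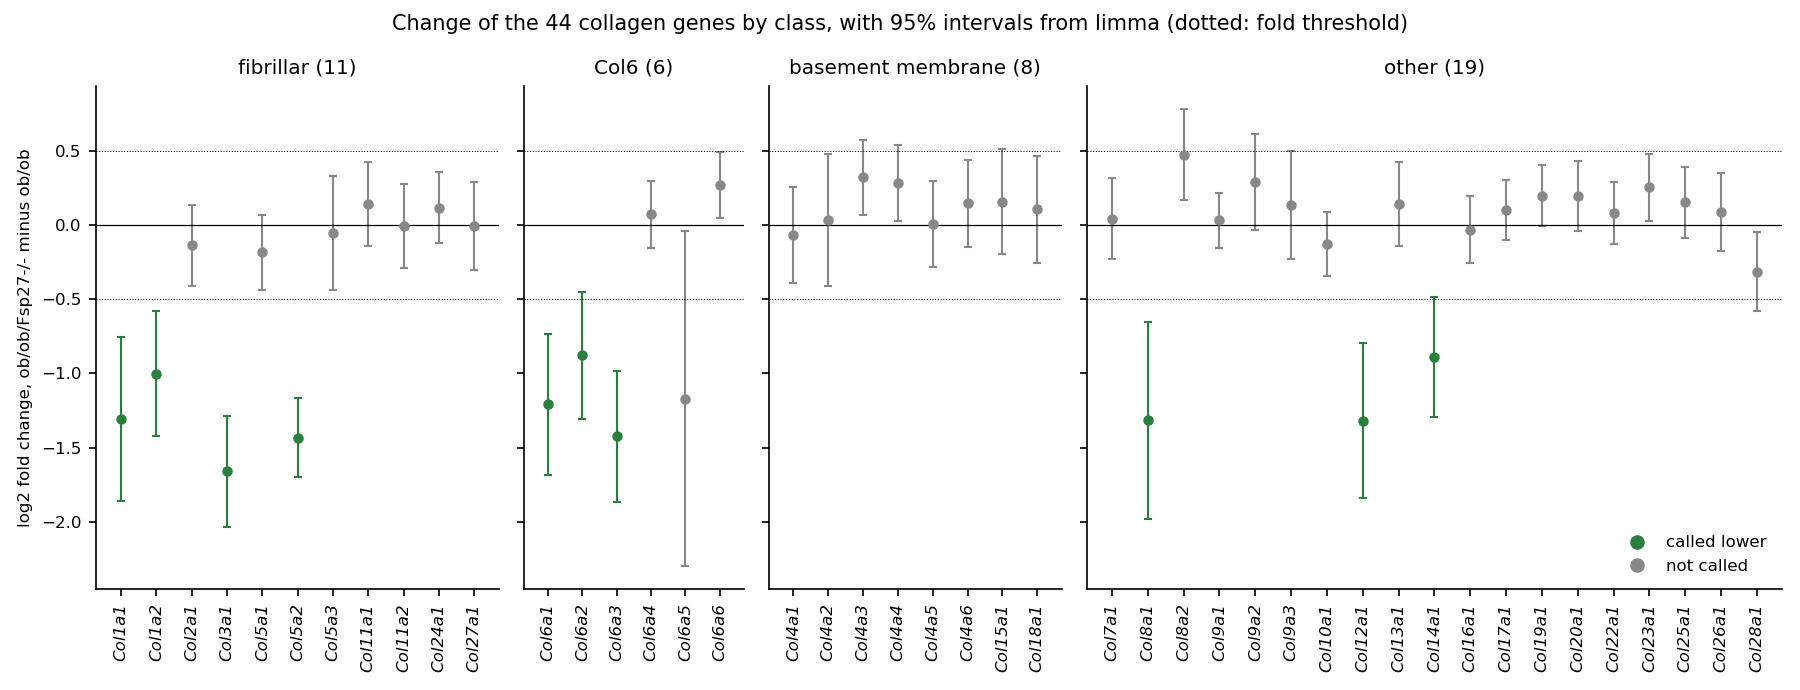
Log2 fold change (*ob/ob/Fsp27*-/- minus *ob/ob*, vertical axis) of each of the 44 collagen genes in its class, with the 95% interval from limma as bars and the fold threshold of 0.5 as dotted lines. The 10 genes called lower lie between -0.88 and -1.66, and of the members not called only *Col6a5* (-1.17, with an interval that reaches -2.30) lies below the lower dotted line.

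By class, 4 of 11 fibrillar genes (36.4%), 3 of 6 Col6 genes, 0 of 8 basement membrane genes and 3 of 19 other genes (15.8%) were lower. Over all genes, 10.8% were called lower and 9.58% higher. In classes this small, 0 of 8 and 3 of 19 do not stand apart from that share of lower calls. The class medians were -0.14 for fibrillar, -1.02 for Col6, 0.13 for basement membrane and 0.09 for other genes. These counts are descriptions, and no test of a difference between classes was made. All 10 genes called lower were among the 29 members whose mean value lay above 6.49, the median of all tested values. Of all genes above that level, 17.7% were called lower. In 11 members all arrays of *ob/ob/Fsp27*-/- GWAT lay below all arrays of *ob/ob* GWAT, as they did in 20.7% of all genes, and these were the 10 called genes and *Col28a1*. In 5 members (*Col4a3*, *Col6a6*, *Col8a2*, *Col19a1* and *Col23a1*) they all lay above, as they did in 25.3% of all genes. The genotypes overlapped in the remaining 28.

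The type I collagen genes, whose products form the most abundant fibrils of the body, fell together. *Col1a1*, the alpha 1 chain, had RMA values of 9.38, 8.81 and 8.62 in *ob/ob/Fsp27*-/- GWAT and 9.99, 10.14 and 10.61 in *ob/ob* GWAT. *Col1a2*, the alpha 2 chain, had 9.47, 9.05 and 8.86 in *ob/ob/Fsp27*-/- GWAT and 9.96, 10.06 and 10.37 in *ob/ob* GWAT. Array 1 was the highest of the *ob/ob/Fsp27*-/- arrays and array 3 the highest of the *ob/ob* arrays for both chains, and in neither did the genotypes overlap. The log2 fold change was -1.31 for *Col1a1* (SE 0.23, limma adjusted p = 0.00565, n = 3 arrays per genotype) and -1.003 for *Col1a2* (SE 0.18, adjusted p = 0.00562), which is 2.48-fold and 2.00-fold lower.

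Type III collagen, which shares fibrils with type I in skin, vessels and other stretchable tissues and is made from a single kind of chain, showed the largest decrease among the members. *Col3a1* had RMA values of 8.69, 8.14 and 8.21 in *ob/ob/Fsp27*-/- GWAT and 9.96, 9.89 and 10.17 in *ob/ob* GWAT. The nearest arrays of the genotypes were 1.20 apart, the widest gap of any collagen gene. The log2 fold change was -1.66 (SE 0.16, adjusted p = 0.000408).

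The type V chains, which start the assembly of type I fibrils, did not move alike. *Col5a2*, the alpha 2 chain, had 6.77, 6.53 and 6.53 in *ob/ob/Fsp27*-/- GWAT and 8.04, 7.90 and 8.20 in *ob/ob* GWAT, a log2 fold change of -1.43 (SE 0.11, adjusted p = 0.000203), with a gap of 1.12 between the nearest arrays. *Col5a1*, the alpha 1 chain, had 7.52, 7.46 and 7.35 in *ob/ob/Fsp27*-/- GWAT and 7.55, 7.51 and 7.83 in *ob/ob* GWAT. These values overlapped, and *Col5a1* did not pass (-0.19, 95% interval -0.44 to 0.07, adjusted p = 0.253). The interval of *Col5a1* does not reach the size of the change in *Col5a2*. *Col5a3*, the alpha 3 chain, did not pass either (-0.05, adjusted p = 0.835).

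The other 6 fibrillar genes that did not pass, next to *Col5a1*, were *Col2a1*, *Col5a3*, *Col11a1*, *Col11a2*, *Col24a1* and *Col27a1*. Types II and XI are known chiefly from cartilage. Their log2 fold changes lay between -0.14 (*Col2a1*) and 0.14 (*Col11a1*), and the lowest limit of their 95% intervals was -0.44 (*Col5a3*). For these members a decrease as large as those in *Col1a1*, *Col1a2*, *Col3a1* or *Col5a2* lay outside the interval on the values as deposited. With each array centred on the median level of a housekeeping list, *Col5a1* (-0.65), *Col2a1* (-0.60) and *Col5a3* (-0.52) were called lower as well.

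**Figure D2:**
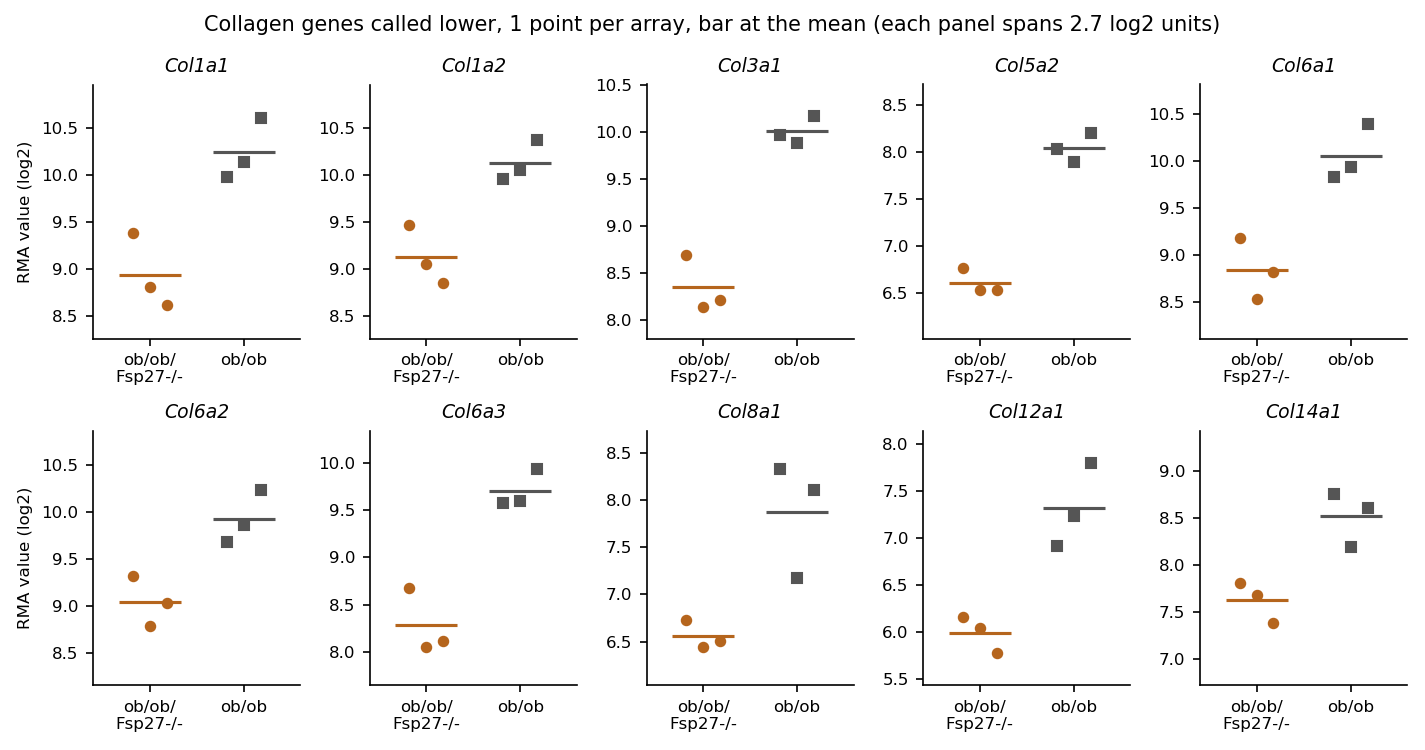
RMA values (log2, vertical axis) of the 10 collagen genes called lower, with 1 point per array, *ob/ob/Fsp27*-/- left of *ob/ob*, and a bar at each mean. The genotypes do not overlap in any panel, and the upper *ob/ob/Fsp27*-/- point is array 1 in every gene.

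Type VI collagen, a microfibril of the matrix around adipocytes, is assembled from an alpha 1, an alpha 2 and an alpha 3 chain, and all of these fell. *Col6a1* had 9.18, 8.54 and 8.82 in *ob/ob/Fsp27*-/- GWAT and 9.83, 9.94 and 10.39 in *ob/ob* GWAT. *Col6a2* had 9.32, 8.78 and 9.03 in *ob/ob/Fsp27*-/- GWAT and 9.68, 9.86 and 10.23 in *ob/ob* GWAT. *Col6a3*, whose product is cleaved to release the fragment endotrophin, had 8.68, 8.05 and 8.11 in *ob/ob/Fsp27*-/- GWAT and 9.58, 9.60 and 9.94 in *ob/ob* GWAT. The genotypes did not overlap in these genes, and array 1 was again the highest of the *ob/ob/Fsp27*-/- arrays. The log2 fold changes were -1.21 for *Col6a1* (SE 0.20, adjusted p = 0.00424), -0.88 for *Col6a2* (SE 0.18, adjusted p = 0.0102) and -1.43 for *Col6a3* (SE 0.19, adjusted p = 0.00153).

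The remaining Col6 genes encode chains that are thought to take the place of alpha 3. *Col6a5* had 9.39, 7.51 and 7.65 in *ob/ob/Fsp27*-/- GWAT and 9.16, 9.71 and 9.18 in *ob/ob* GWAT. Array 1 of *ob/ob/Fsp27*-/- GWAT lay within the range of the *ob/ob* arrays, and the other two lay well below it. The log2 fold change was -1.17 (SE 0.48, adjusted p = 0.115), and without that array it was -1.77 (adjusted p = 0.00141), past the threshold. A second probeset of *Col6a5* showed the same arrangement, with 8.60, 7.11 and 6.88 in *ob/ob/Fsp27*-/- GWAT and 8.20, 8.45 and 8.07 in *ob/ob* GWAT (-0.71, adjusted p = 0.257). *Col6a4* (0.07, adjusted p = 0.624) and *Col6a6* (0.27, adjusted p = 0.0716) were not called. All *ob/ob/Fsp27*-/- arrays lay above all *ob/ob* arrays in both probesets of *Col6a6*, and the second had a log2 fold change of 0.41 (adjusted p = 0.0861). *Col6a5* and *Col6a6* were the only members with more than 1 probeset.

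Basement membrane collagens did not pass the test in either direction (0 of 8 lower and 0 higher, against 10.8% and 9.58% of all genes). *Col4a1*, the alpha 1 chain of the type IV network found in nearly all basement membranes, had 9.19, 9.23 and 8.92 in *ob/ob/Fsp27*-/- GWAT and 9.01, 9.11 and 9.42 in *ob/ob* GWAT. *Col4a2*, which encodes its alpha 2 partner, had 9.23, 9.36 and 8.82 in *ob/ob/Fsp27*-/- GWAT and 8.88, 8.99 and 9.44 in *ob/ob* GWAT. For both, the genotypes overlapped, with array 3 the lowest in *ob/ob/Fsp27*-/- GWAT and the highest in *ob/ob* GWAT. The log2 fold changes were -0.07 for *Col4a1* (95% interval -0.39 to 0.25, adjusted p = 0.747) and 0.04 for *Col4a2* (-0.41 to 0.48, adjusted p = 0.910).

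*Col15a1* and *Col18a1* encode basement membrane collagens that carry sugar side chains and link the membrane to the matrix below it, and *Col18a1* is the source of the fragment endostatin. *Col15a1* had 10.30, 9.98 and 10.14 in *ob/ob/Fsp27*-/- GWAT and 9.78, 9.89 and 10.28 in *ob/ob* GWAT (0.16, 95% interval -0.20 to 0.51, adjusted p = 0.490). *Col18a1* had 7.59, 7.72 and 7.68 in *ob/ob/Fsp27*-/- GWAT and 7.33, 7.44 and 7.91 in *ob/ob* GWAT (0.10, -0.25 to 0.46, adjusted p = 0.655). In both, array 3 was the highest *ob/ob* array and the *ob/ob/Fsp27*-/- arrays lay within or close to the *ob/ob* range. The chains of specialised basement membranes such as that of the kidney filter, *Col4a3* (0.32, adjusted p = 0.0620), *Col4a4* (0.28, adjusted p = 0.0970) and *Col4a5* (0.00, adjusted p = 0.982), and the related *Col4a6* (0.15, adjusted p = 0.433) were not called.

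The lowest limit of the 95% intervals over the 8 basement membrane genes was -0.41 (*Col4a2*) and the highest was 0.57 (*Col4a3*). A decrease of 0.5 thus lay outside the interval of every one of them on the values as deposited. At an unadjusted limma p under 0.05, 2 of the 8 were higher (*Col4a3* and *Col4a4*, against 20.9% of all genes) and 0 were lower (against 19.2% of all genes). With the same housekeeping centring, which moved the median of all genes to -0.40, *Col4a1* alone of these genes was called lower (-0.53, adjusted p = 0.0146).

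**Figure D3:**
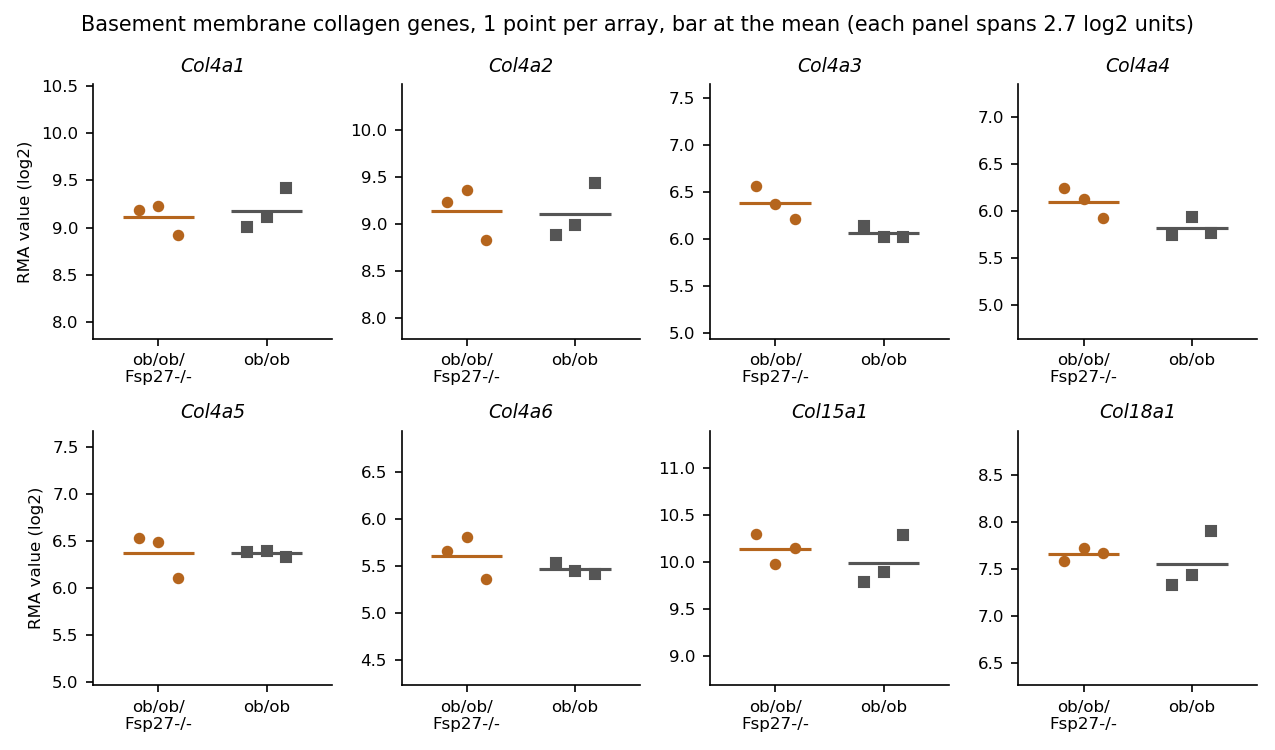
RMA values (log2, vertical axis) of the 8 basement membrane collagen genes, with 1 point per array, *ob/ob/Fsp27*-/- left of *ob/ob*, and a bar at each mean, on axes of the same span as those for the genes called lower. The genotypes overlap in every gene but *Col4a3*, in which the lowest *ob/ob/Fsp27*-/- array is 0.07 above the highest *ob/ob* array.

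Among the 19 genes of other types, 3 fell (15.8%, against 10.8% of all genes). *Col8a1*, a short-chain collagen of vessel walls, had 6.72, 6.44 and 6.50 in *ob/ob/Fsp27*-/- GWAT and 8.34, 7.17 and 8.11 in *ob/ob* GWAT, with array 2 well below the other *ob/ob* arrays. The log2 fold change was -1.32 (SE 0.28, adjusted p = 0.0121), and the call was lost without *ob/ob/Fsp27*-/- array 2 (-1.26, adjusted p = 0.0519). *Col12a1* and *Col14a1* encode types XII and XIV, which decorate the surface of type I fibrils. *Col12a1* had 6.17, 6.04 and 5.78 in *ob/ob/Fsp27*-/- GWAT and 6.92, 7.24 and 7.80 in *ob/ob* GWAT (-1.32, SE 0.22, adjusted p = 0.00444). *Col14a1* had 7.82, 7.68 and 7.39 in *ob/ob/Fsp27*-/- GWAT and 8.76, 8.20 and 8.61 in *ob/ob* GWAT (-0.89, SE 0.17, adjusted p = 0.00766). The genotypes did not overlap in these genes.

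*Col8a2*, the partner of *Col8a1*, lay just short of a call in the opposite direction. Its log2 fold change was 0.47 (SE 0.13, adjusted p = 0.0324), which passed on p but not on size. It had 5.81, 6.11 and 5.68 in *ob/ob/Fsp27*-/- GWAT and 5.46, 5.24 and 5.48 in *ob/ob* GWAT. It was the member nearest to the fold threshold, and it was called higher when the *ob/ob* array 3 (0.52, adjusted p = 0.0492) or the *ob/ob/Fsp27*-/- array 3 (0.57, adjusted p = 0.0284) was left out. *Col28a1*, a collagen known from peripheral nerve, had the lowest value among the members of this class that did not pass (-0.31, adjusted p = 0.0814). The other 14 covered the remaining fibril-associated types (*Col9a1*, *Col9a2*, *Col9a3*, *Col16a1*, *Col19a1*, *Col20a1* and *Col22a1*), the membrane-spanning types (*Col13a1*, *Col17a1*, *Col23a1* and *Col25a1*), the anchoring fibril gene *Col7a1*, the growth cartilage gene *Col10a1* and *Col26a1*. Their log2 fold changes lay between -0.13 (*Col10a1*) and 0.29 (*Col9a2*), and none passed, the lowest adjusted p being 0.0902 (*Col23a1*).

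Chains that build 1 molecule together were then set side by side. The difference between their RMA values was taken within each array, and since the levels of different probesets cannot be compared, only the change of this difference between genotypes was read. With 3 arrays per genotype a two-sided exact permutation test cannot give a p below 0.1. Of 17 pairs, 10 reached that limit, with a Benjamini-Hochberg value of 0.17 over the 17 pairs, so no pair passed. The share of other gene pairs that reach it was not computed. Among single genes, all *ob/ob/Fsp27*-/- arrays lay below all *ob/ob* arrays in 20.7% and above in 25.3%. Where a called gene is paired with one that was not called, the separation largely restates the call.

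For type V, *Col5a1* minus *Col5a2* was 0.75, 0.92 and 0.82 in *ob/ob/Fsp27*-/- GWAT and -0.49, -0.39 and -0.38 in *ob/ob* GWAT, a change of 1.25 (exact permutation p = 0.1). For type VIII, *Col8a1* minus *Col8a2* was 0.92, 0.33 and 0.82 in *ob/ob/Fsp27*-/- GWAT and 2.88, 1.94 and 2.63 in *ob/ob* GWAT, a change of -1.79 (exact permutation p = 0.1). The genotypes did not overlap in either difference. Within type VI, *Col6a2* minus *Col6a3* changed by 0.55 and *Col6a1* minus *Col6a2* by -0.33. For type I, *Col1a1* minus *Col1a2* changed by -0.31. In each of these type VI and type I differences the genotypes did not overlap, at the same exact permutation p of 0.1. The type IV pair *Col4a1* minus *Col4a2* changed by -0.10, with overlapping genotypes (exact permutation p = 0.2). The changes of the other pairs ranged from -1.38 (*Col5a2* minus *Col5a3*) to 0.32 (*Col4a3* minus *Col4a5*).

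**Figure D4:**
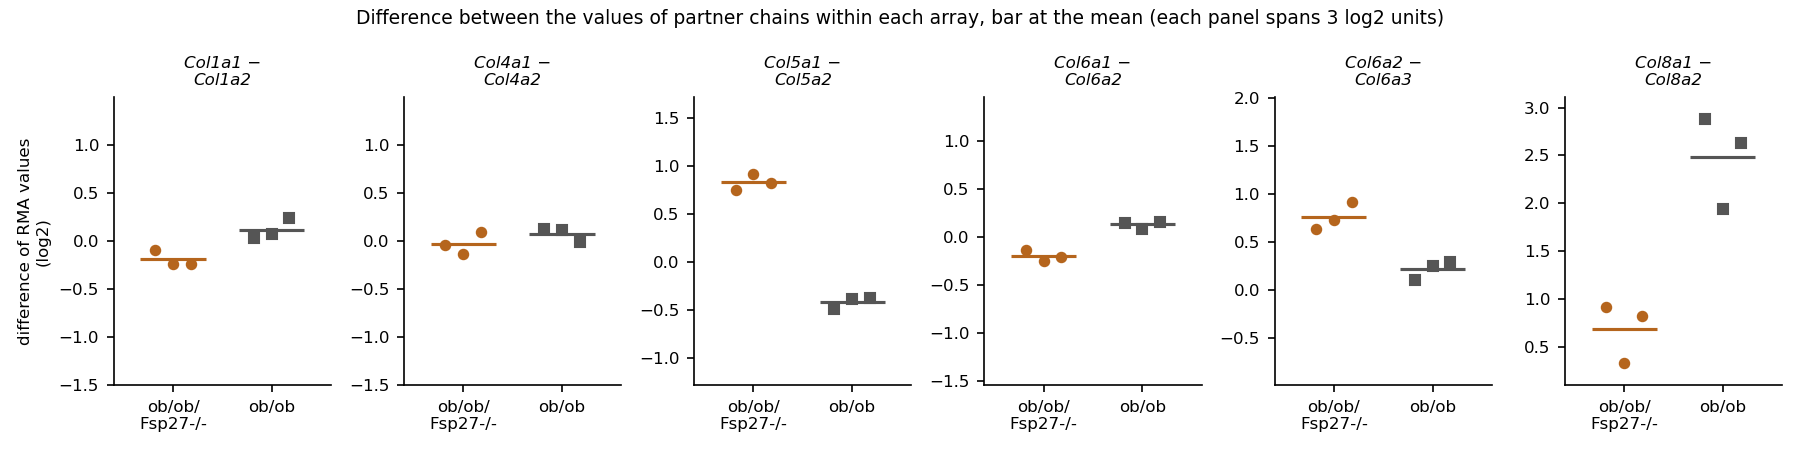
Difference of RMA values (log2, vertical axis) between partner chains within each array, with 1 point per array, *ob/ob/Fsp27*-/- left of *ob/ob*, and a bar at each mean. The genotypes are apart in every pair shown except *Col4a1* minus *Col4a2*. The shift is largest for *Col8a1* minus *Col8a2* (-1.79) and *Col5a1* minus *Col5a2* (1.25).

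As a further description, chosen after the values were seen, fibrillar and type VI genes were set against *Col4a1* within each array. *Col1a1* minus *Col4a1* was 0.20, -0.42 and -0.30 in *ob/ob/Fsp27*-/- GWAT and 0.98, 1.03 and 1.19 in *ob/ob* GWAT, a change of -1.24. The corresponding changes were -1.59 for *Col3a1* and -1.36 for *Col6a3*. The *ob/ob* arrays lay close together in these differences, and the *ob/ob/Fsp27*-/- arrays all lay below them. Only genes called lower were set against *Col4a1*, which was not called, so the separation restates those calls. Fibrillar genes that were not called were not compared in this way.

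Several members are neighbours among protein-coding genes in the RefSeq mouse gene table. *Col3a1* and *Col5a2* lie next to each other and both fell, and so do *Col6a1* and *Col6a2*. Neither gene was called in the neighbouring pairs *Col4a1* and *Col4a2*, *Col4a3* and *Col4a4*, *Col4a5* and *Col4a6*, and *Col9a1* and *Col19a1*. *Col6a6*, *Col6a5* and *Col6a4* follow each other and none was called.

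Promoter windows of 250 bases before and 50 bases after the annotated start (RefSeq, build GRCm38.p6) were matched to 35 of the 44 members, including 6 of the 10 that fell. The windows of *Col1a2* and *Col3a1* are shown because these genes fell together, and the stretch shared by the windows of *Col4a1* and *Col4a2* because these partners, which did not pass, are read in opposite directions from starts 21 bases apart. Capitals mark matches on either strand to the CCAAT box (letters CCAAT), the TATA box (letters TATAAA) and the GC box (letters GGGCGG), and no matches overlap in the stretches shown.
Col1a2, chr6:4505368-4505667, plus strand: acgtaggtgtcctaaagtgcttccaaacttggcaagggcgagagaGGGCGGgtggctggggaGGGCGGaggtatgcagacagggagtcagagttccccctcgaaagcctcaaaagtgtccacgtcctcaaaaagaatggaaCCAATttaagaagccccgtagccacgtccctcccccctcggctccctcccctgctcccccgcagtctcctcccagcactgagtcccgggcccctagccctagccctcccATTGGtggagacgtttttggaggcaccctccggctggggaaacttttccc
Col3a1, chr1:45311288-45311587, plus strand: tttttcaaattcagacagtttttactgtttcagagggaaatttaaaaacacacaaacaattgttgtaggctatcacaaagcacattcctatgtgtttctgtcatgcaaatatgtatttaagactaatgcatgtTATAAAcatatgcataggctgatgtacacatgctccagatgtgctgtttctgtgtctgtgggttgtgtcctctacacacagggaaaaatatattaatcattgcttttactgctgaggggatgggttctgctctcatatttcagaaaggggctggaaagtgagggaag
Col4a1 and Col4a2 shared, chr8:11312777-11312854, plus strand: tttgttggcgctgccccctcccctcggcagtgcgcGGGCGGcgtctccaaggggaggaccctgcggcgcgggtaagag

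The *Col1a2* window held 2 CCAAT boxes and 2 GC boxes, and 61.0% of its bases were G or C. The *Col3a1* window held 1 TATA box and 37.7% G or C, so these windows share none of the motifs searched. The shared *Col4a1* and *Col4a2* stretch of 78 bases held 1 GC box. Over the 7 windows of members that fell, 1 held a CCAAT box, 1 a TATA box and 4 a GC box. Over the 31 windows of the other members, 12 held a CCAAT box, 4 a TATA box and 19 a GC box. Some members have more than 1 window, so these are counts of windows and not of genes. Of all 32851 mouse promoter windows of this length, 37.4% hold the CCAAT box, 13.62% the TATA box and 35.7% the GC box. A match of letters does not show that a factor binds there.

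Genes that act on collagen were taken from lists written from general knowledge. Earlier results of these data were known when the lists were chosen, so their counts are descriptions and not independent support. Over 7 of these lists together (synthesis and folding, propeptide processing, crosslinking, receptors and uptake, degradation, fibril-binding proteins and basement membrane partners), 32 of 85 measured genes were lower and 3 were higher, against 10.8% and 9.58% of all genes, 50 were not called, and the median log2 fold change was -0.28. Of 21 genes for collagen synthesis and folding, 4 were lower and 0 higher (1 higher at an unadjusted limma p under 0.05): *Plod2* (-1.44), the lysyl hydroxylase of fibril crosslinks, *Colgalt1* (-1.20), which adds galactose to collagen, *Creb3l1* (-0.90), a transcription factor of collagen-secreting cells, and *P4ha1* (-0.82), a prolyl hydroxylase subunit. The median of that list was -0.27, and 18 of its genes lay above the median of all tested values, where 17.7% of all genes were lower. Of 7 genes for propeptide processing, 4 were lower and 0 higher (0 higher also at an unadjusted limma p under 0.05): the enhancers *Pcolce2* (-1.31) and *Pcolce* (-1.25), and the proteinases *Bmp1* (-0.80) and *Adamts14* (-0.68). Of 5 crosslinking genes, the lysyl oxidase family members *Loxl1* (-1.05) and *Loxl3* (-0.69) were lower and 0 were higher (0 higher also at an unadjusted limma p under 0.05). At that unadjusted p, 20.9% of all genes were higher.

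Of 13 genes for collagen degradation and its inhibition, 8 were lower and 0 higher (1 higher at an unadjusted limma p under 0.05), with a median of -1.05, among them the lysosomal collagenase *Ctsk* (-3.90), the metalloproteinase inhibitor *Timp1* (-2.95), the interstitial collagenase *Mmp13* (-1.79) and *Fap* (-1.42). *Ctsk* lay at 6.53 to 6.74 in *ob/ob/Fsp27*-/- GWAT and at 10.27 to 11.001 in *ob/ob* GWAT. Of 12 receptors and uptake genes, 7 were lower, led by the inhibitory leukocyte receptor *Lair1* (-2.83), the mannose receptor *Mrc1* (-1.68), *Antxr2* (-1.19), which takes up type VI collagen, and the endocytic receptor *Mrc2* (-0.91). In that list 2 were higher, *Itga1* (0.70), a subunit of an integrin that binds type IV collagen, and *Ddr1* (0.62), a collagen-activated kinase. *Lair1* and *Mrc1* are expressed by leukocytes, and *Mrc1* is also on the macrophage list. For comparison with these counts, 10.8% of all genes were called lower and 9.58% higher, and 20.9% were higher at an unadjusted limma p under 0.05.

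Proteins that bind fibrils and those that sit in basement membranes showed different counts. Of 13 fibril-binding genes, 6 were lower and 0 higher (0 higher also at an unadjusted limma p under 0.05), with a median of -0.41, including *Postn* (-1.91), *Fn1* (-1.59), *Lum* (-1.56) and *Thbs2* (-1.52). Of 14 basement membrane partners, 12 were not called, 1 was lower, *Lama2* (-0.92), a laminin chain of muscle and fat cells, and 1 was higher, *Lamb3* (0.62), with a median of 0.12. At an unadjusted limma p under 0.05, 5 of these partners were higher and 2 lower, against 20.9% and 19.2% of all genes. The difference between these lists was not tested. Of 14 genes for TGF-beta and fibrosis signalling, a list not counted among the 7 above, 6 were lower and 1 was higher. The lower ones were led by *Tgfb1* (-1.53), *Tgfbr1* (-1.16), *Tgfbr2* (-0.76) and *Pdgfa* (-0.59), and the inhibitor *Smad7* (0.58) was higher. At an unadjusted limma p under 0.05, 8 were lower and 2 higher. All 14 lay above the median of all tested values, where 17.7% of all genes were called lower. Over all genes, 10.8% were called lower and 9.58% higher.

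**Figure D5:**
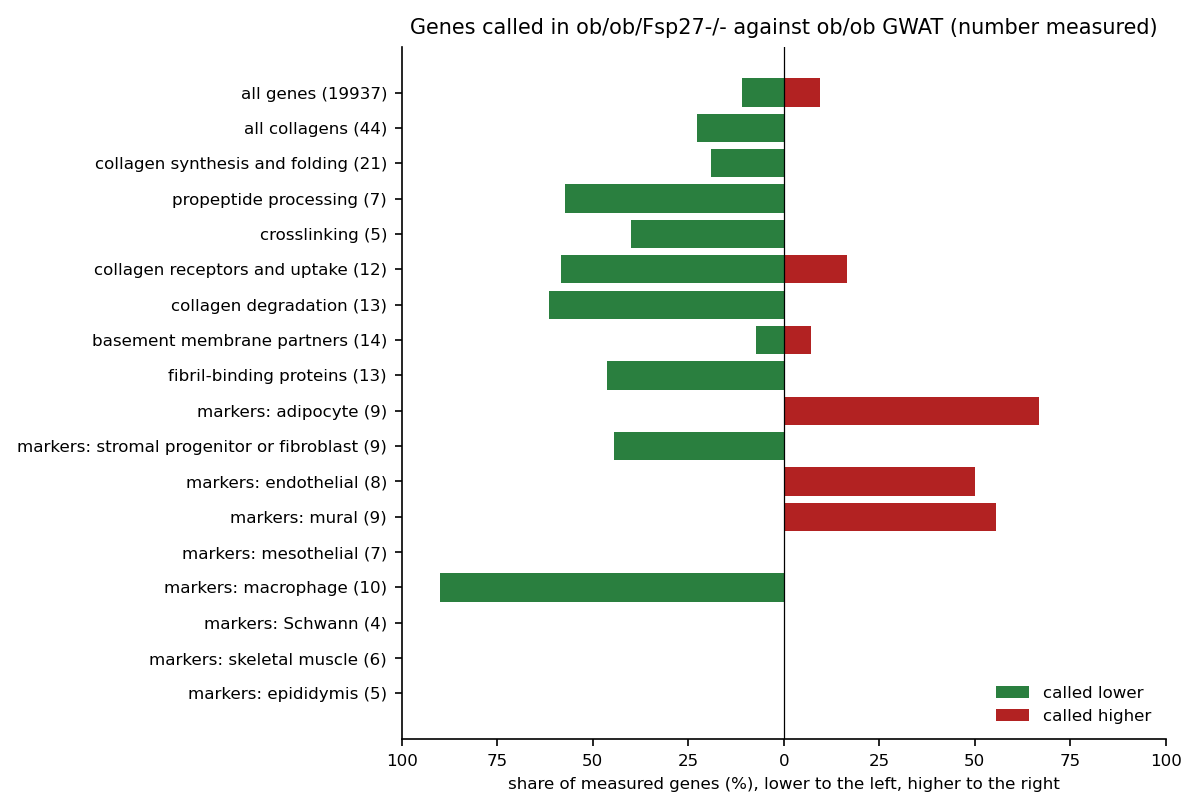
Share of measured genes called lower (left) and higher (right) in *ob/ob/Fsp27*-/- against *ob/ob* GWAT, in percent. Rows are all genes, the collagens, the pathway lists and the cell type lists, with the number measured in parentheses. The TGF-beta and fibrosis signalling list and the housekeeping list are not shown. Lower calls exceed higher calls in the collagens and in every pathway list except the basement membrane partners (1 of each), and the adipocyte, endothelial and mural lists hold only higher calls.

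Markers of several cell types moved with the collagens, and in bulk tissue fewer cells of a type and less RNA per cell cannot be told apart. Of 9 measured markers of stromal progenitors or fibroblasts, the main makers of fibrillar collagen, 4 were lower (*Mfap5* -1.73, *Thy1* -1.02, *Dpt* -0.99 and *Pdgfra* -0.52) and 0 were higher (also 0 at an unadjusted limma p under 0.05), against 10.8% of all genes lower and 9.58% higher. The 5 that were not called lay between -0.44 (*Pdgfrb*) and 0.28 (*Gsn*). *Pdgfra* and *Pdgfrb* are also on the TGF-beta and fibrosis signalling list, so the counts of these lists overlap. Over all genes, 20.9% were higher at an unadjusted limma p under 0.05. The mean of the fibroblast list was 9.05, 8.82 and 8.74 in *ob/ob/Fsp27*-/- GWAT and 9.42, 9.46 and 9.42 in *ob/ob* GWAT. Array 1 was the highest *ob/ob/Fsp27*-/- array here, as for the collagens that fell. It was also the highest in the means of the endothelial (9.33, 9.31 and 9.23) and mural (8.76, 8.69 and 8.66) lists. Among *ob/ob* arrays, array 3 did not stand out in the fibroblast list, whereas it was the highest in 8 of the 10 collagens that fell. Of 10 macrophage markers, 9 were lower, led by *Itgax* (-3.61), *Itgam* (-3.30), *Adgre1* (-3.21) and *Cd68* (-2.68), with list means of 8.14 to 8.38 in *ob/ob/Fsp27*-/- GWAT and 10.29 to 10.48 in *ob/ob* GWAT. The part of these cell types in the collagen values was not tested.

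Part of the adipocyte, endothelial and mural markers was higher, against 9.58% of all genes. Of 9 adipocyte markers, 6 were higher, led by *Slc2a4* (2.10), *Retn* (1.47), *Adipoq* (1.20) and *Pnpla2* (0.95), with list means of 12.05 to 12.14 in *ob/ob/Fsp27*-/- GWAT and 10.76 to 11.54 in *ob/ob* GWAT. Of 8 endothelial markers, 4 were higher (*Kdr* 1.398, *Tie1* 0.95, *Emcn* 0.77 and *Cdh5* 0.64), with list means of 9.23 to 9.33 in *ob/ob/Fsp27*-/- GWAT and 8.30 to 8.77 in *ob/ob* GWAT. Of 9 mural markers, 5 were higher, led by *Myh11* (1.04), *Kcnj8* (0.76), *Abcc9* (0.75) and *Des* (0.61), with list means of 8.66 to 8.76 in *ob/ob/Fsp27*-/- GWAT and 8.03 to 8.31 in *ob/ob* GWAT. *Col4a1* and *Col4a2*, made by endothelial and mural cells among others, did not pass beside these. Their part in the collagen values was not tested. The mesothelial (7), Schwann (4), skeletal muscle (6) and epididymis (5) lists held 0 calls, against 10.8% of all genes lower and 9.58% higher. At an unadjusted limma p under 0.05 the Schwann list held 1 and the muscle list 2 higher genes. At that p, 20.9% of all genes were higher.

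Within a genotype, the collagens that fell varied together between arrays. Array 1 was the highest of the *ob/ob/Fsp27*-/- arrays in all 10 of them, on average 0.28 above the genotype's mean. Array 3 was the highest of the *ob/ob* arrays in 8 of the 10, on average 0.26 above. This was not particular to genes that fell. The same *ob/ob* array was highest in the means of the basement membrane class (7.35, 7.40 and 7.57), the adipocyte list (10.76, 11.27 and 11.54) and the mural list (8.03, 8.22 and 8.31). It was not the highest in the endothelial, fibroblast or macrophage list means. Among the 34 members not called, array 3 was the lowest *ob/ob/Fsp27*-/- array in 27. That array also had the lowest mean over all genes in its genotype (6.63, 6.66 and 6.60 in arrays 1, 2 and 3). The shares of these array ranks over all genes were not counted. Without *ob/ob/Fsp27*-/- array 1, 11 members were lower, where 2128 of all 19937 genes were. Without *ob/ob* array 3, 10 members were lower, where 2346 of all genes were. Of the 10, *Col8a1* alone lost its call when a single array was left out (limma adjusted p = 0.0519 without *ob/ob/Fsp27*-/- array 2).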

How the data were processed

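Gene expression in GWAT was measured on 6 arrays, 3 from *ob/ob/Fsp27*-/- and 3 from *ob/ob* mice. The deposited log2 values are the authors' RMA output: background was adjusted, arrays were brought to common quantiles, and probes were summarised per transcript cluster. Software versions behind them are not stated in the sources used here. The study's filter on detection above background needs single-probe values and was not repeated, so signal near background was not separated from expression.

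Of 34760 probesets, 21640 carry 1 gene symbol, 1321 several and 11799 none; symbols came from the platform annotation and were brought up to date through RefSeq by Entrez number for 21553 probesets. The 22961 with at least 1 symbol were fitted with the lmFit and eBayes functions of limma 3.58.1 under R 4.3.3, as *ob/ob/Fsp27*-/- minus *ob/ob* without covariates, with Benjamini-Hochberg adjustment. A gene was represented by its probeset with the highest mean. Calls required adjusted p < 0.05 and a log2 fold change of 0.5 or more in either direction. Intervals are limma's 95% intervals and are not adjusted. Partner chains were compared with two-sided exact permutation tests over arrays.

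The members, classes and lists were chosen with earlier results of these data known. Values in every array are given for called members and for *Col4a1*, *Col4a2*, *Col5a1*, *Col15a1* and *Col18a1*, which were named by rule, and at most 4 called genes per list and direction are named. Values of *Col6a5* and *Col8a2* are given because leaving out 1 array changed their calls. Promoter windows were read from a RefSeq table, and plots were made in matplotlib 3.10.9 on python 3.11.15. With 3 arrays per genotype, precision is limited throughout. Alternatives were 2 filters on low signal (the 30th percentile and the median), inclusion of every probeset, housekeeping and array-median centring, and cyclic loess. Further alternatives were array weights, the trend and robust forms of eBayes, treat, and no fold threshold or a log2 fold threshold of 1. The last were averaging the probesets of a gene and leaving out each array in turn.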

Additional observations from a re-analysis of the deposited data

How the results depend on the processing

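Across 20 alternatives no collagen gene changed direction while called, and *Col3a1*, *Col5a2* and *Col6a3* were called lower in all of them. The filters on low signal, all probesets, array medians, cyclic loess, limma-trend, robust eBayes and the mean of a gene's probesets left the counts of collagens called within 1.5 times. Centring on the median level of the housekeeping list moved the median of all genes to -0.40 (684 higher and 6691 lower, against 1910 and 2158 as reported) and gave 17 collagens lower, of which 7 were fibrillar, 4 Col6, 1 basement membrane and 5 other, with 57 pathway genes lower and 0 higher. That list holds *Gusb* (-2.14) and *Sdha* (1.07), which were themselves called. Centring instead on the median deviation of each housekeeping gene from its own mean, which was chosen after seeing the data, moved the median to 0.16 (2582 higher and 1770 lower) and gave 1 collagen higher (the other class, 1) and 7 pathway genes higher. Testing against a log2 fold change of 0.5 (treat) gave 3 collagens lower (fibrillar 2, Col6 1, other 0). It gave 21 pathway genes lower and 0 higher, where 4.71% of all genes were lower and 2.84% higher. Array weights and the absence of a fold threshold each gave 1 collagen higher (the other class, 1), which was *Col8a2*. Of all 19937 genes, 1951 and 2936 were higher in these settings. Without a fold threshold 8 of 85 pathway genes were higher. A log2 fold threshold of 1 gave 21 of 85 pathway genes lower and 0 higher, where 955 of 19937 genes were lower and 652 higher. It ended the calls of *Col6a2* and *Col14a1*. Array weights ended the call of *Col8a1* (adjusted p = 0.0528). Leaving out each array in turn gave 9 to 11 collagens lower and 0 to 1 higher (0 to 1 in the other class). It gave 0 to 6 pathway genes higher (6 without *ob/ob* array 3 and 0 without *ob/ob* array 2). Of all 19937 genes, 1961 to 2346 were then lower and 1620 to 2120 higher. Without *ob/ob* array 3, 2120 were higher, and without *ob/ob* array 2, 1696 were.

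With 3 arrays per genotype and RNA that the study's methods, though not the labels, describe as pooled, the spread between single mice is unknown. Arrays give no read depth, and a member that did not pass is not shown to be unchanged. The collagens with low signal, such as *Col19a1* and *Col10a1*, lie low on the scale, where signal over background was not measured. No paired analysis was possible because the labels give the genotypes no shared replicate numbers.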
